A study of Mus musculus with 6 samples.

Results

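The 48 genes described here encode proteins that copy DNA, supply its building blocks or control the start of S phase. They were listed by name for their known roles, by a rule that uses no measured value but was set with earlier results of these data known. Each member's symbol was matched to its Ensembl identifier, and all 48 were found once among the 29267 gene identifiers of the tables. The series profiled mouse neural stem cells by RNA sequencing of total RNA and, per its title, addresses naloxone in their proliferation and differentiation. It holds 6 libraries, 1 for each pairing of 2 states with 3 ligand conditions. The undifferentiated state is labelled NSC and the differentiated state is labelled D2. In each state 1 library is a control (Con), 1 is from cells with naloxone (Nal), an opioid receptor antagonist, and 1 is from cells with damgo (Dam), written DAMGO here, a peptide that activates the mu opioid receptor. All 6 libraries were from cells of the OG2 mouse strain at passage 8. Doses, exposure times and the differentiation medium were not stated in the labels. Nothing in them ties the libraries to separate cultures or animals, so the p-values given here reflect the spread among these 6 libraries alone, which may be technical.

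DNA replication starts when the origin recognition complex, Cdc6 and Cdt1 load the ring-shaped MCM helicase onto DNA in the G1 phase of the cell cycle. Kinases then activate the helicase with Cdc45 and GINS, polymerase alpha-primase starts each strand, and polymerases delta and epsilon extend it on the PCNA clamp. Many of these genes are known targets of E2F transcription factors, which switch them on as a cell enters S phase, so dividing neural progenitors hold their transcripts and cells that leave the cycle lose them.

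Library totals ran from 8417074 to 13561237 expected counts, and 17065 to 17789 genes had a count in a library. Members took 0.662% to 0.675% of the counts in the NSC libraries and 0.130% to 0.138% in the D2 libraries. Of 9 astrocyte markers all 9 rose in D2 (summed level 942 to 989 CPM, counts scaled to library size, in NSC and 5952 to 6203 CPM in D2), and 6 of 7 tested oligodendrocyte lineage markers rose, with Cspg4 falling. Of 9 neural stem cell markers 7 rose, while Nes and Vim fell, and of 7 tested neuron markers 3 rose and 3 fell. In each library 4 to 6 of the 7 microglial markers had 0 counts. Microglial markers summed to 0.196 to 1.98 CPM, endothelial markers to 3.19 to 4.82 CPM and pluripotent cell markers to 0.110 to 2.84 CPM over the 6 libraries. The 8 fibroblast and pericyte markers summed to 0.772 to 11 CPM in NSC and 15.2 to 29.5 CPM in D2. The part of the cell type makeup in the results below was not tested, and in bulk RNA fewer cycling cells and less RNA per cell cannot be told apart.

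Every one of the 48 members was lower in D2 than in NSC. Counts were scaled by TMM to CPM and tested with edgeR's quasi-likelihood test in a model of state plus ligand, with Benjamini-Hochberg adjustment over 13216 genes and a threshold of 0.05. All 48 fell (39.8% of all genes tested were called lower) and 0 rose (40.0% were called higher). A fall of at least 4-fold was called for 31 members (6.70% of all genes), and one of at least 8-fold for 13 (2.33%). The median log2 fold change of the members was -2.46, against 0.00 over all genes tested, so the median member kept 18.1% of its NSC level. The NSC and D2 libraries did not overlap in CPM for any member, with NSC above D2 (40.9% of all genes tested had NSC above D2 in this way). Adjusted p-values from edgeR ran from 1.10e-12 to 3.88e-04 and standard errors from 0.05 to 0.16. The fall was seen under each ligand condition, with a median log2 ratio of D2 over NSC of -2.43 in the controls, -2.41 under naloxone and -2.63 under DAMGO (SD 0.12 over the 3).

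**Figure D1:**
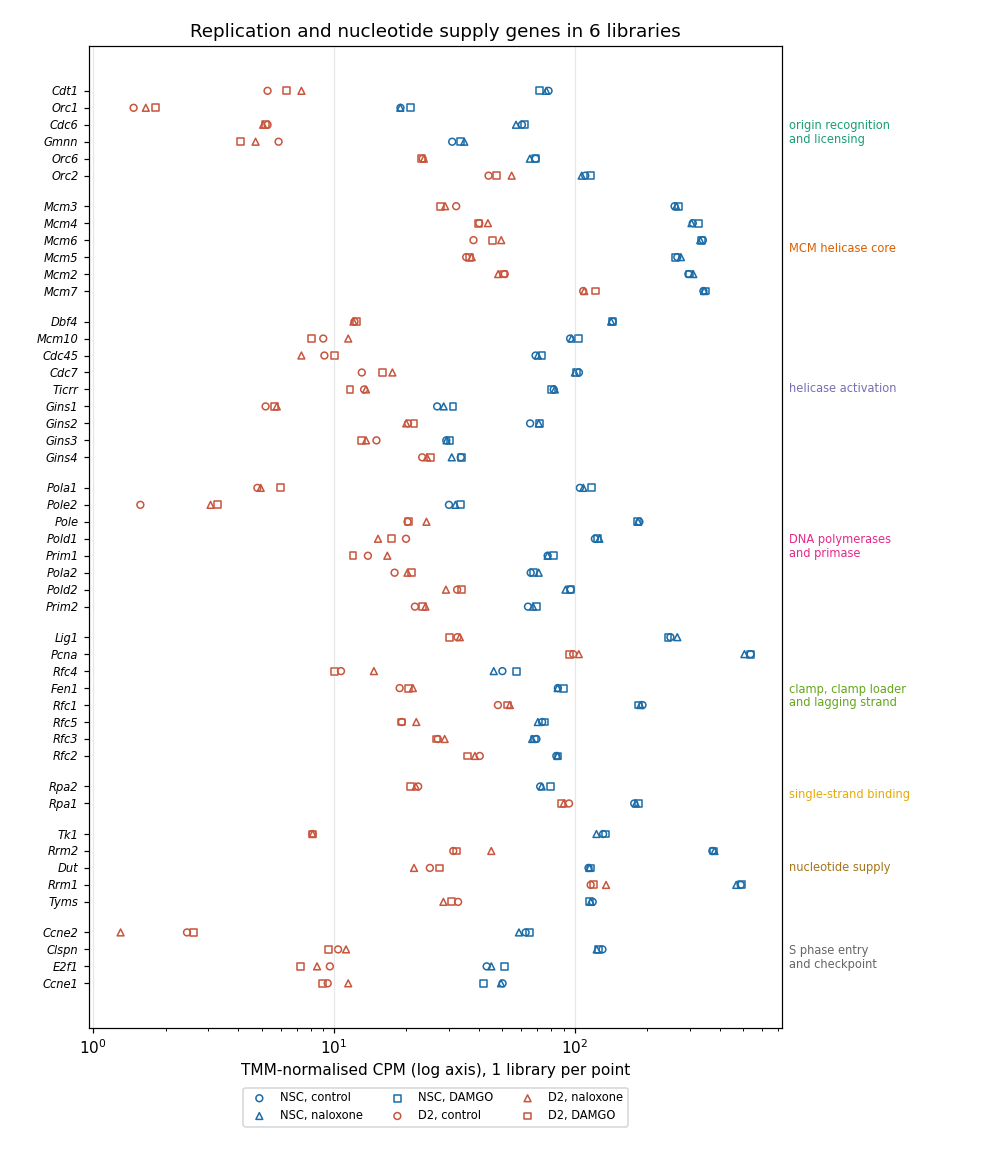
TMM-normalised CPM on a log axis for the 48 genes, grouped by role, with 1 library per point; blue is NSC, red is D2, and circles, triangles and squares are control, naloxone and DAMGO. The blue points lie right of the red ones for all 48 genes, and the gap is narrowest for Gins4 (32.8 CPM in NSC and 24.2 CPM in D2 on average).

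Deposited TPM, which allows levels to be compared between genes per length, summed to 6478, 6495 and 6591 over the members in NSC control, naloxone and DAMGO, and to 1311, 1393 and 1309 in D2. Pcna, the sliding clamp that holds polymerases on DNA, stood highest of the members in NSC at 838 ± 19.9 TPM (SD over the 3 ligand conditions, n = 3). In the lists of 3 values that follow, the order is control, naloxone, DAMGO.

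The 6 genes of origin recognition and licensing had a median log2 fold change of -3.13. Cdt1, which brings the MCM ring to origins, fell most among them (ENSMUSG00000006585, chr8:122568015-122573554, plus strand, mm10). The NSC libraries held 77.8, 76.2 and 71.6 CPM of Cdt1 and the D2 libraries 5.30, 7.32 and 6.34 CPM. Cdt1 thus had a log2 fold change of -3.58 (SE 0.10, edgeR adjusted p = 2.21e-11). Cdc6, the ATPase that loads the ring together with Cdt1, and Orc1, the largest subunit of the origin recognition complex, fell to a like degree. For Cdc6 the values were 60.3, 57.0 and 62.1 CPM in NSC and 5.30, 5.08 and 5.21 CPM in D2. Orc1 stood at 18.9, 18.9 and 20.7 CPM in NSC, against 1.47, 1.65 and 1.81 CPM in D2. Their log2 fold changes were -3.52 and -3.56 (SE 0.10 and 0.16), and Orc1 rested on few reads in D2, with 15, 14 and 16 counts. The other subunits measured here fell less. Orc2 was measured at 111, 107 and 116 CPM in NSC and at 43.8, 54.7 and 47.4 CPM in D2. On the log2 scale Orc2 fell by 1.20 (SE 0.07, edgeR adjusted p = 1.86e-08). Orc6 had the highest NSC level of this group per length at 93.1 ± 3.14 TPM and stood at 32.7 ± 0.985 TPM in D2. The NSC libraries held 68.8, 65.1 and 68.8 CPM of Orc6 and the D2 libraries 23.3, 23.6 and 23.1 CPM. This was a 2.89-fold fall (log2 fold change -1.53, SE 0.07, edgeR adjusted p = 1.47e-09). Within the origin recognition complex Orc1 thus kept 8.44% of its NSC level, Orc6 34.6% and Orc2 43.7%. Orc2 shares 29.8% of its exon bases with Nif3l1 on the opposite strand, whose log2 fold change was 0.12. In D2 Nif3l1 had 498 to 592 counts, against 419 to 463 for Orc2. Orc6 shares 6.9% with Vps35 (1131 to 1374 counts in D2) and Orc1 10.8% with Gm12743 (2 to 5). The part of these overlaps in the 3 values was not tested. Gmnn encodes geminin, the protein that holds Cdt1 inactive after origins have fired. For Gmnn the values were 31.0, 34.8 and 33.4 CPM in NSC and 5.89, 4.73 and 4.07 CPM in D2. The fall was 6.68-fold (log2 fold change -2.74, SE 0.13, edgeR adjusted p = 2.20e-09). On the TPM scale Cdt1 and Gmnn were nearly level in NSC, with a Cdt1 to Gmnn ratio of 0.906 to 1.06, and the ratio was 0.390 to 0.625 in D2.

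The 6 genes of the MCM helicase core had a median log2 fold change of -2.90, and 5 of them lay close together, between -3.16 (Mcm3) and -2.60 (Mcm2). Mcm3 stood at 259.8, 264 and 271 CPM in NSC, against 32.2, 28.9 and 27.7 CPM in D2. Mcm3 thus had a log2 fold change of -3.16 (SE 0.07, edgeR adjusted p = 2.21e-12). Mcm7 was the exception (ENSMUSG00000029730, chr5:138164583-138172422, minus strand, mm10). Mcm7 was measured at 342, 345 and 350.3 CPM in NSC and at 108, 109.5 and 122 CPM in D2. On the log2 scale Mcm7 fell by 1.61 (SE 0.05, edgeR adjusted p = 6.78e-11). In NSC the highest MCM subunit was 1.87 to 1.94 times the lowest in TPM. In D2 the highest, Mcm7, was 5.11 to 5.61 times the lowest, Mcm5 or Mcm3. Mcm7 had the highest level of the group per length in NSC as well, at 331 ± 1.78 TPM, and 125 ± 7.68 TPM in D2. The microRNA genes Mir25 and Mir93 lie inside Mcm7, and its exons share 7.3% of their bases with Ap4m1 on the opposite strand. Ap4m1 had 239 to 413 counts per library against 1105, 927 and 1080 for Mcm7 in D2, and its own log2 fold change was -0.22. The part of this overlap in the Mcm7 value was not tested.

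The 9 helicase activation genes had a median log2 fold change of -2.66 and ran from -3.55 to -0.44. Dbf4, the activating subunit of the Cdc7 kinase that phosphorylates the MCM ring, fell most and had the highest NSC level of the group per length at 139 ± 0.57 TPM. The NSC libraries held 144, 142 and 144 CPM of Dbf4 and the D2 libraries 12.2, 12 and 12.4 CPM. This was an 11.7-fold fall (log2 fold change -3.55, SE 0.07, edgeR adjusted p = 1.10e-12). Cdc7 itself fell by 2.73 on the log2 scale, and the TPM ratio of Dbf4 to Cdc7 was 1.85 to 1.94 in NSC and 0.887 to 1.21 in D2. Mcm10, Cdc45 and Ticrr, which help build the active helicase at the origin, had log2 fold changes of -3.38, -3.0 and -2.66. Cdc45 shares 6.0% of its exon bases with Ufd1 on the opposite strand, whose log2 fold change was 0.18. In D2 Ufd1 had 544 to 653 counts, against 62 to 93 for Cdc45. The part of this overlap in the Cdc45 value was not tested. GINS is a complex of 4 proteins that binds the active helicase, and its genes had the smallest falls of the group in counts. Gins1 fell by 2.37, Gins2 by 1.75, Gins3 by 1.09 and Gins4 by 0.44 on the log2 scale of counts. The order of the first 2 depends on the scale, since in TPM the log2 ratio was -2.27 for Gins1 and -2.90 for Gins2, whose assigned length differed between the states and whose exons overlap Gse1 (given further on). Gins4 fell least of all 48 members (ENSMUSG00000031546, chr8:23226616-23237659, minus strand, mm10). For Gins4 the values were 33.6, 30.8 and 34.0 CPM in NSC and 23.2, 24.3 and 25.1 CPM in D2. The fall was 1.35-fold (log2 fold change -0.44, SE 0.08, edgeR adjusted p = 3.88e-04). In TPM, Gins2 was the highest GINS subunit in each NSC library (99.1, 105 and 112 TPM) and Gins4 the highest in each D2 library (39.0, 41.6 and 41.8 TPM).

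**Figure D2:**
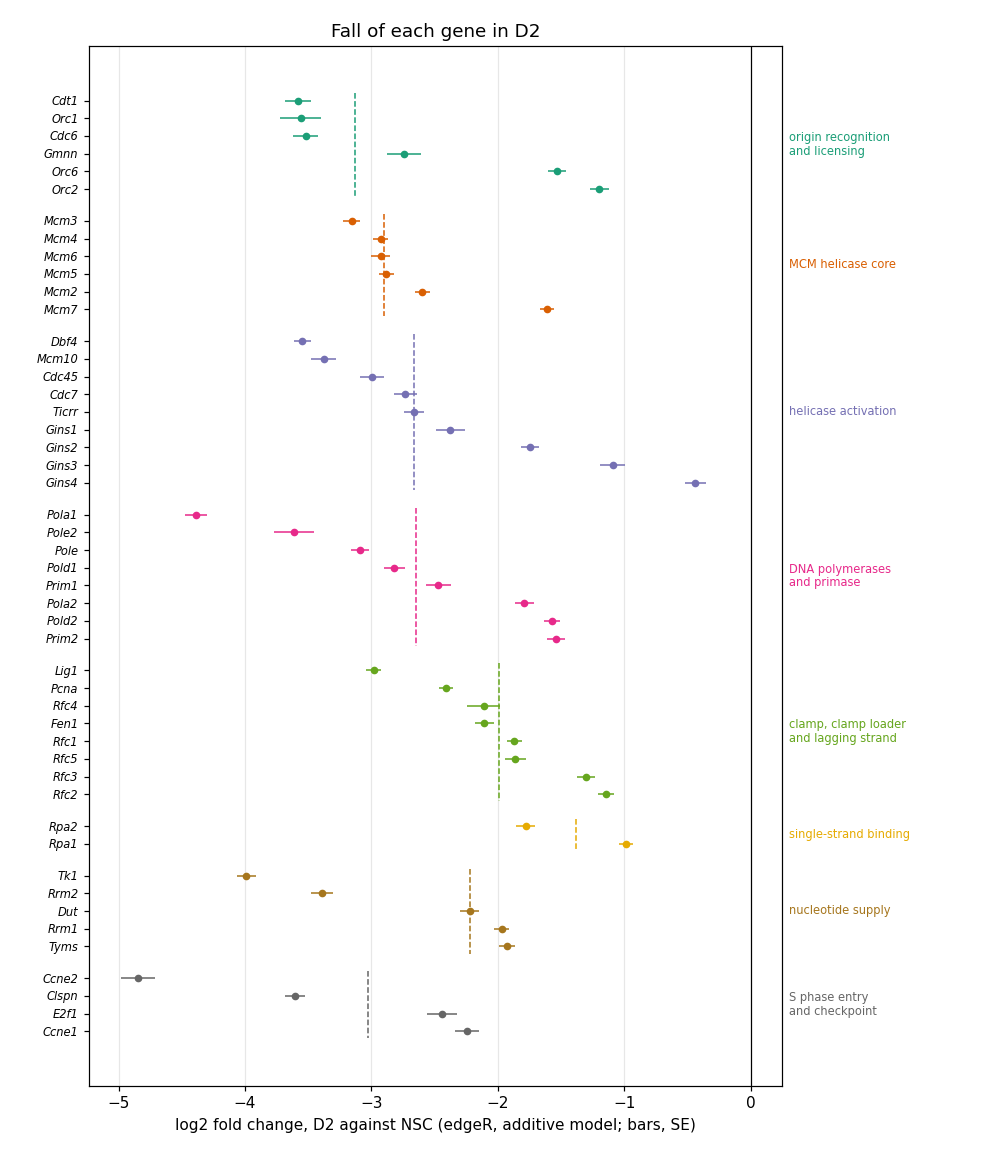
Log2 fold change of D2 against NSC for the 48 genes by role, from edgeR's additive model of all 6 libraries, with bars for the SE and a dashed line for each role's median. All points lie left of 0, from -4.85 (Ccne2) to -0.44 (Gins4). Genes of the same complex can lie apart, such as Pola1 (-4.39) and Prim2 (-1.54) or Gins1 (-2.37) and Gins4. Differences between genes were not tested.

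Among the 8 genes of DNA polymerases and primase (median log2 fold change -2.65), the catalytic subunits of polymerases alpha and delta had larger falls than their partners; differences between genes were not tested here or in the other complexes. Pola1, the catalytic subunit of polymerase alpha, fell to 4.77% of its NSC level (ENSMUSG00000006678, chrX:93304767-93632155, minus strand, mm10). Pola1 stood at 105, 109 and 117 CPM in NSC, against 4.81, 4.96 and 6.0 CPM in D2. Pola1 thus had a log2 fold change of -4.39 (SE 0.09, edgeR adjusted p = 1.30e-12). Its partners in the same complex kept more: Pola2, the regulatory subunit, had a log2 fold change of -1.79, Prim1, the primase catalytic subunit, -2.47, and Prim2, the large primase subunit, -1.54. Prim2 was measured at 63.9, 67.1 and 69.2 CPM in NSC and at 21.7, 24.0 and 23.3 CPM in D2. On the log2 scale Prim2 fell by 1.54 (SE 0.07, edgeR adjusted p = 1.38e-09). The highest subunit of polymerase alpha-primase was 2.15 to 2.40 times the lowest in TPM in NSC and 6.68 to 8.78 times in D2, with Pola1 lowest in all 6 libraries. Pold1 and Pold2, the catalytic and accessory subunits of polymerase delta, stood at a TPM ratio of 0.898 to 1.05 in NSC and 0.261 to 0.408 in D2. Pold2 had the highest NSC level of the group per length, at 142 ± 6.77 TPM. The NSC libraries held 96.1, 91.6 and 96.3 CPM of Pold2 and the D2 libraries 32.5, 29.2 and 33.8 CPM. This was a 2.98-fold fall (log2 fold change -1.57, SE 0.07, edgeR adjusted p = 4.78e-10). Of polymerase epsilon, the members Pole and Pole2 did not show that order. Its catalytic subunit Pole had a log2 fold change of -3.09 and Pole2 one of -3.61 (SE 0.07 and 0.16), with Pole2 at 16, 26 and 29 counts in D2. The epsilon subunits Pole3 and Pole4 are not among the members. In the same fit they fell less than Pole, with log2 fold changes of -0.60 and -1.29.

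The 8 genes of the clamp, its loader and the lagging strand had a median of -1.99. Lig1, the ligase that seals Okazaki fragments, fell most. For Lig1 the values were 249.6, 267 and 244 CPM in NSC and 32.6, 33.3 and 30.1 CPM in D2. The fall was 7.91-fold (log2 fold change -2.98, SE 0.06, edgeR adjusted p = 1.30e-12). Fen1, the flap nuclease that trims the fragments before ligation, had a log2 fold change of -2.11, but 78.8% of its exon bases lie in the antisense gene Gm10143, so without strand the reads of the pair are uncertain. Pcna stood at 537, 507 and 537 CPM in NSC, against 98.5, 104 and 95.3 CPM in D2. Pcna thus had a log2 fold change of -2.41 (SE 0.06, edgeR adjusted p = 4.20e-12). Pcna kept 18.8% of its NSC level, and still stood highest of the 48 members in D2 at 154 ± 6.78 TPM. The clamp loader RFC opens the PCNA ring and closes it around DNA. Of its 5 subunits Rfc4 had a log2 fold change of -2.11, Rfc1 -1.87, Rfc5 -1.86, Rfc3 -1.31 and Rfc2 -1.14. Rfc2 was measured at 83.9, 84.7 and 85.2 CPM in NSC and at 40.3, 38.5 and 35.9 CPM in D2. On the log2 scale Rfc2 fell by 1.14 (SE 0.07, edgeR adjusted p = 9.79e-09). Subunits of RFC spread by a factor of 1.44 to 1.71 in TPM in NSC and 2.86 to 3.83 in D2. Rfc2, Rfc4 and Rfc5 share 15.1%, 12.7% and 10.7% of their exon bases with Lat2, Eif4a2 and Wsb2 on the opposite strand. The part of these overlaps in the RFC values was not tested.

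The 2 single-strand binding proteins had the smallest median of the 8 roles, -1.38. Rpa1, the large subunit of replication protein A, coats single-stranded DNA in repair as well as in replication. The NSC libraries held 177, 179 and 184 CPM of Rpa1 and the D2 libraries 94.7, 90.0 and 87.8 CPM. This was a 1.98-fold fall (log2 fold change -0.99, SE 0.06, edgeR adjusted p = 8.22e-09). The middle-sized subunit Rpa2 fell more. For Rpa2 the values were 71.9, 72.9 and 79.3 CPM in NSC and 22.4, 21.9 and 20.8 CPM in D2. The fall was 3.43-fold (log2 fold change -1.78, SE 0.08, edgeR adjusted p = 6.56e-10). Rpa1 had the higher NSC level per length, at 151 ± 5.36 TPM, and the TPM ratio of Rpa1 to Rpa2 was 1.44 to 1.58 in NSC and 2.44 to 2.91 in D2.

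**Figure D3:**
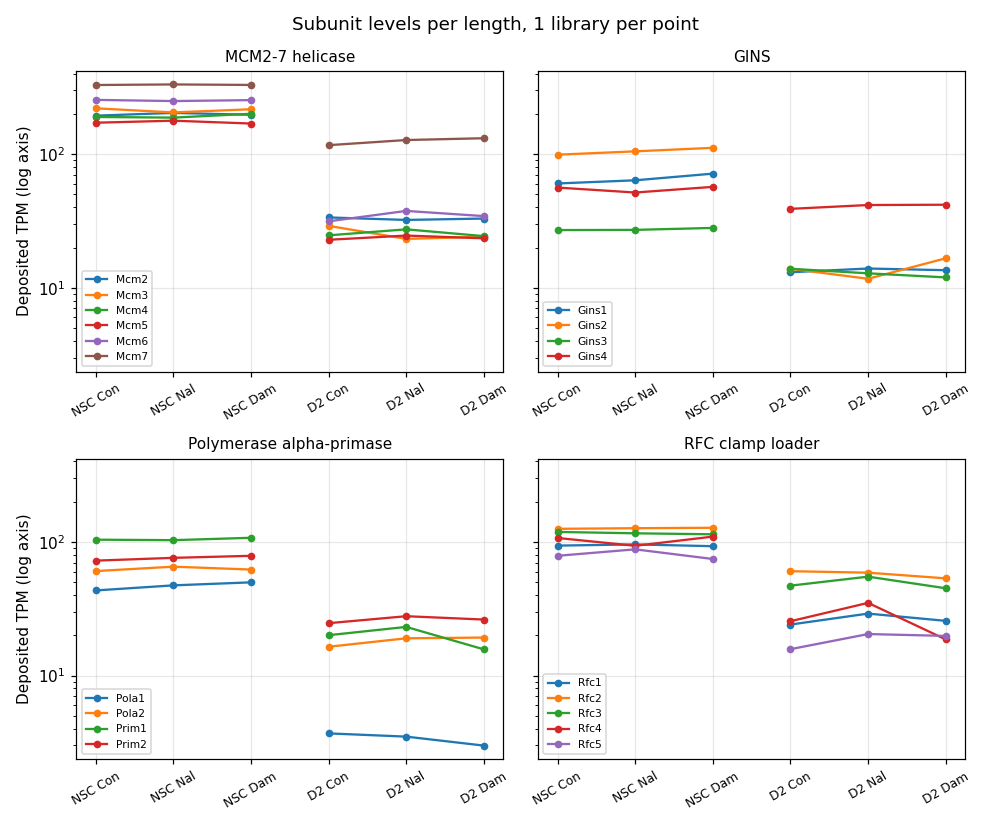
Deposited TPM on a log axis for the subunits of 4 complexes in each library; lines join libraries of the same state and have no order of time or dose. Mcm7 and Gins4 lie above, and Pola1 below, the other subunits of their complex in all 3 D2 libraries.

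Nucleotide supply held 5 genes with a median of -2.22. Tk1, the cytosolic thymidine kinase of the salvage route, is known for its tie to S phase (ENSMUSG00000025574, chr11:117815526-117826092, minus strand, mm10). Tk1 stood at 131, 123 and 135 CPM in NSC, against 8.14, 8.15 and 8.15 CPM in D2. Tk1 thus had a log2 fold change of -3.99 (SE 0.08, edgeR adjusted p = 1.10e-12). Rrm1 and Rrm2 encode the large and small subunits of ribonucleotide reductase, which makes deoxyribonucleotides. Rrm2 had the highest NSC level of the group per length, at 402 ± 13.5 TPM. Rrm2 was measured at 373, 381 and 378 CPM in NSC and at 31.3, 45.0 and 32.3 CPM in D2. On the log2 scale Rrm2 fell by 3.39 (SE 0.09, edgeR adjusted p = 9.45e-12). Rrm1 kept more of its NSC level (25.5% against 9.60% for Rrm2). The NSC libraries held 489, 469 and 493 CPM of Rrm1 and the D2 libraries 116, 135 and 119 CPM. The TPM ratio of Rrm1 to Rrm2 was 0.619 to 0.687 in NSC and 1.41 to 1.91 in D2. The subunits thus swapped order between the states. Dut, which removes dUTP, and Tyms, which makes thymidylate, had log2 fold changes of -2.22 and -1.93. For Tyms the values were 119, 116 and 115 CPM in NSC and 32.8, 28.5 and 30.7 CPM in D2. This was a 3.81-fold fall (log2 fold change -1.93, SE 0.06, edgeR adjusted p = 6.87e-11).

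S phase entry and checkpoint genes included the member that fell most, Ccne2, a cyclin that activates Cdk2 at the start of S phase (ENSMUSG00000028212, chr4:11191351-11204779, plus strand, mm10). Ccne2 stood at 62.5, 58.6 and 64.7 CPM in NSC, against 2.45, 1.30 and 2.60 CPM in D2. The fall was 28.9-fold (log2 fold change -4.85, SE 0.13, edgeR adjusted p = 1.53e-11). It had the highest NSC level of the 4 genes per length, at 66.8 ± 7.09 TPM, and kept 3.42% of its NSC level in CPM. Its D2 counts were low, at 25, 11 and 23. Ccne2 shares 17.4% of its exon bases with Ints8 on the opposite strand, which had 424 to 461 counts in D2. The part of this overlap in the Ccne2 value was not tested. The other E-type cyclin, Ccne1, fell less. Ccne1 was measured at 50.1, 49.4 and 41.7 CPM in NSC and at 9.42, 11.5 and 8.94 CPM in D2. Ccne1 thus had a log2 fold change of -2.25 (SE 0.10, edgeR adjusted p = 5.75e-10). Clspn encodes claspin, the adaptor that carries the replication checkpoint signal to Chk1, and had a log2 fold change of -3.61. E2f1, an activating E2F factor, fell from 43.1, 45.0 and 51.2 CPM in NSC to 9.61, 8.51 and 7.24 CPM in D2, a log2 fold change of -2.44.

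Falls did not follow the NSC level: across the 48 genes, which share libraries and are not independent, Spearman's rho between mean NSC TPM and log2 fold change was 0.09. The 6 members that kept over 40% of their NSC level were Rfc3, Orc2, Rfc2, Gins3, Rpa1 and Gins4, and they come from 4 of the 8 roles. The 11 that kept under 10% were Ccne2, Pola1, Tk1, Pole2, Clspn, Cdt1, Orc1, Dbf4, Cdc6, Rrm2 and Mcm10.

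For most members the fall in read counts and the fall per length were alike. The log2 ratios of D2 over NSC in mean CPM and mean TPM differed by at most 0.25 for 42 of the 48. For the other 6 the length that RSEM assigned to the gene, a mean over its transcripts weighted by their estimated use, differed on average between the states. Gins2 was the largest case: its assigned length was 1456 to 1534 bases in NSC and 2851 to 3837 bases in D2, and its log2 ratio was -1.75 in CPM and -2.90 in TPM. Gins2 shares 67.3% of its exon bases (2758 bases) with Gse1 on the opposite strand, which had a log2 fold change of -0.57, and the library kit does not mark strand. The part of Gse1 reads in the Gins2 values was not tested. Tyms, Ccne2 and Pold1 also had longer assigned lengths on average in D2 and a larger fall in TPM, with log2 TPM ratios of -2.45, -5.37 and -3.15. Pola1 and Orc1 had shorter ones on average and a smaller fall in TPM, at -3.79 and -3.07.

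**Figure D4:**
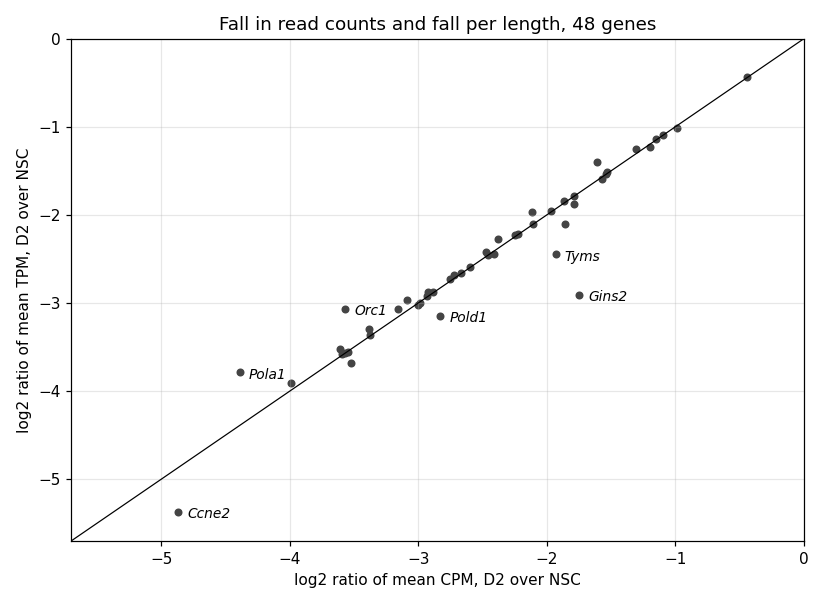
Log2 ratio of D2 over NSC in mean TPM against that in mean CPM for the 48 genes, each point 1 gene, with the line of equality. The 6 named genes lie more than 0.25 from the line, Gins2 farthest (-1.75 in CPM and -2.90 in TPM).

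The members' promoters were searched for the letters of a consensus E2F site, TTTCCCGC, TTTCGCGC, TTTGCCGC or TTTGGCGC, on both strands and counting overlapping matches. RefSeq windows on GRCm38.p6, from 250 bases before to 50 bases after a start, were matched for 39 of the 48 members. At least 1 of these sequences was in the window of 14 of the 39 genes (35.9%), against 2.60% of 27025 genes with a window. Those 27025 genes were not limited to the genes tested for expression. They were also not matched to the members by the G and C content of their windows, so the shares here differ in more than role. CCAAT, the CCAAT box, was in 59.0% of the member genes and 41.1% of all genes. The cell cycle homology region CHR, searched as TTTGAA or TTTAAA, was in 33.3% and 30.6%. The shorter letters GGCGGG or GCGGGA, which can overlap the E2F site, were in 89.7% and 41.5%. The 14 genes with E2F letters were Orc1, Cdc6, Cdt1, Mcm3, Mcm5, Mcm6, Mcm7, Gins3, Pola1, Pole2, Pold1, Rfc3, Lig1 and Clspn. Their median log2 fold change was -3.07, against -2.22 for the 25 members with a window and no such letters, a description with no test. Of those 25, E2f1 and Dut have windows that lie wholly inside the gene, so bases before its outermost start were not searched. Mcm7, Gins3 and Rfc3 hold the letters and were among the smaller falls. A match is a run of letters and not a measured binding site. The members were listed for roles whose genes are often known E2F targets, so their share with the letters is not independent of that choice. A part of E2F factors in the fall was not tested.

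The windows of 4 MCM genes with close falls (Mcm2, Mcm3, Mcm5 and Mcm6) and of Pola1, the polymerase subunit that fell most, are shown 5′ to 3′ on the gene's strand. Capitals mark the E2F letters on either strand, with overlapping matches run together, and Mcm2 is shown as an MCM gene whose window holds none. Mcm2 lies at chr6:88898731-88899030 (minus strand), Mcm3 at chr1:20820263-20820562 (minus strand), Mcm5 at chr8:75109259-75109558 (plus strand), Mcm6 at chr1:128359656-128359955 (minus strand) and Pola1 at chrX:93632106-93632405 (minus strand).
Mcm2: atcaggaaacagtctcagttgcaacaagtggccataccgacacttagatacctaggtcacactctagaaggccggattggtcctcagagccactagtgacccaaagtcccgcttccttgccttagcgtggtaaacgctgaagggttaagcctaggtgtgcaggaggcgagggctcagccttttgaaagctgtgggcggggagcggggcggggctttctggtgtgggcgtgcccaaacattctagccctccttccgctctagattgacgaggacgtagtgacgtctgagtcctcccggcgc
Mcm3: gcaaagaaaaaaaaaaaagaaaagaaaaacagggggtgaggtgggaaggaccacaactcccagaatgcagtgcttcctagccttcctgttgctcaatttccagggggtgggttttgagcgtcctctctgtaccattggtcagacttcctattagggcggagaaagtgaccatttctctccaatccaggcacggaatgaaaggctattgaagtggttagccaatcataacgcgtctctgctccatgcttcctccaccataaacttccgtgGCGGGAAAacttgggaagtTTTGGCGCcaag
Mcm5: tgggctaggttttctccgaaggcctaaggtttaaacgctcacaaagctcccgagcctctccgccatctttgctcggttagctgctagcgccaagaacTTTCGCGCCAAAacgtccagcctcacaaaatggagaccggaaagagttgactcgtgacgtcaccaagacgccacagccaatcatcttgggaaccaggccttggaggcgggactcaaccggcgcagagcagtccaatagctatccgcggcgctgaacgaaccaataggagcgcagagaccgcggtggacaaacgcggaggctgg
Mcm6: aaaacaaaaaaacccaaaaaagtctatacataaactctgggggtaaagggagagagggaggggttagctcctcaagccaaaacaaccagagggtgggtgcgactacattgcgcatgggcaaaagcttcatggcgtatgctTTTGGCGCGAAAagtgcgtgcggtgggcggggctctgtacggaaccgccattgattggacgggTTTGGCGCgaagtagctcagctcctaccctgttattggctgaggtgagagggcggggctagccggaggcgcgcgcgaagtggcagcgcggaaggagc
Pola1: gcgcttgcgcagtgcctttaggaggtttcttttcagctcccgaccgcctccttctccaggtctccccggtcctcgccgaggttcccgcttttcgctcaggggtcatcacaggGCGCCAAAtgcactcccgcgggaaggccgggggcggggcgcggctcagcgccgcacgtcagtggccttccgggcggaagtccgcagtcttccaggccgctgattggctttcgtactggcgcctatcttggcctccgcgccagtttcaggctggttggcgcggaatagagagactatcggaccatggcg
Mcm2 holds 0 matches, Mcm3 2, Mcm5 2 that overlap, Mcm6 3 and Pola1 1.

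Other genes of the same processes, tested in the same edgeR fit against the same background, also fell for the most part. Among 26 other replication factors 25 fell and 1 rose, with a median of -1.57: Atad5, which unloads PCNA, fell most (-4.44), Mcm9 changed least (-0.40) and Pold4, a small polymerase delta subunit, rose (1.01). Of 25 other genes of nucleotide synthesis and salvage 24 fell and 1 rose, with a median of -1.04. Shmt1, a folate enzyme, fell by 3.63, Mthfd1 by 0.27, and Tk2, the mitochondrial thymidine kinase, rose by 1.07 on the log2 scale. Cytosolic Tk1 and mitochondrial Tk2 thus differed in direction. In the list of E2F factors, pocket proteins and Cdk2 regulators, 17 of 19 fell, with a median of -1.53. Ccna2, the S phase cyclin A, fell by 3.41, Rbl2, the pocket protein p130 known from resting cells, rose by 0.83, and E2f5 did not pass the test (0.11, SE 0.09, edgeR adjusted p = 0.310). All 11 genes that package newly made DNA into chromatin fell (median -2.94), from Hells at -5.40 to Asf1a at -0.19. All 25 mitosis genes listed for comparison fell too, with a median of -3.13, from Cenpe at -6.04 to Ube2c at -2.52. The difference between the mitosis and replication medians was not tested.

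No member was called for a ligand in the additive edgeR model, which averages each ligand over both states. The counts were 0 of 48 for naloxone against control (0.0151% of all genes called), 0 for DAMGO against control (0.0151%) and 0 for naloxone against DAMGO (0.0303%). At an unadjusted p under 0.05 edgeR had 0, 0 and 1 members in these comparisons, while 2.22%, 2.40% and 2.12% of all genes passed. DESeq2 and limma called 0 members in each. Their shares of all genes called are not given here, so these counts are not read as a result about the members. Members' log2 fold changes ran from -0.14 to 0.20 for naloxone and from -0.21 to 0.28 for DAMGO, with a median SE of 0.09. Naloxone and DAMGO share their control, and with 1 library per group the data do not show that ligand and control are alike. A library decided 1 call: without the NSC naloxone library, edgeR called Rrm2 higher under naloxone (log2 fold change 0.52, SE 0.10, adjusted p = 0.0368), when 0.295% of all genes were called for naloxone. The naloxone arm is then the D2 library alone, which is assumed to vary like the other groups, since they supply the spread behind the SE and p.

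Within a state there is 1 library per condition, so ratios are given with an exact binomial 95% interval that covers counting error only, and without a p-value. In NSC the median ratio was 0.999 for naloxone over control, 1.03 for DAMGO over control and 0.972 for naloxone over DAMGO. No member was past 1.5-fold with an interval leaving out 1 (1.56%, 1.51% and 1.45% of all genes were). By the interval alone, naloxone over control had 2 members above 1 (4.0% of all genes) and 2 below (4.91%). DAMGO over control had 4 above (3.59%) and 1 below (4.19%). Naloxone over DAMGO had 2 above (5.26%) and 7 below (5.55%), the 7 being 14.6% of members. In that comparison 13 of the 48 members had a ratio over 1, against 50.4% of all genes. For DAMGO over control 35 members had a ratio over 1 (48.2% of all genes), and for naloxone over control 23 (48.7%). The DAMGO library is shared by the comparisons with 13 and 35. Ratios to control ran from 0.917 (Gins4) to 1.12 (Gmnn) under naloxone, with Pcna at 0.944 (0.911 to 0.978) and Lig1 at 1.07 (1.02 to 1.12). Under DAMGO they ran from 0.831 (Ccne1, 0.726 to 0.950) to 1.19 (E2f1, 1.04 to 1.35), with Pola1 at 1.11 and Rfc4 at 1.14. Summed over all members, the NSC counts under naloxone were 0.995 times control (0.986 to 1.01), and under DAMGO 1.02 times control (1.01 to 1.03).

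In D2 the ratios spread more widely, on 11629 to 13256 member counts per library, against 61526 to 89855 in NSC. The median ratio was 1.05 for naloxone over control, 1.00 for DAMGO over control and 1.04 for naloxone over DAMGO. Only Pole2 was past the 1.5-fold rule against control, at 1.96 (1.01 to 3.90) under naloxone (3.06% of all genes) and 2.09 (1.10 to 4.12) under DAMGO (3.31%), and no member was past it between naloxone and DAMGO (2.35%). Pole2 stood at 1.57, 3.07 and 3.28 CPM there, and both ratios share that control library.

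By the interval alone, 7 members were above control under naloxone (14.6% of members, 10.7% of all genes) and 1 was below (2.08%, against 10.3% of all genes). Rrm2 stood at 31.3 CPM in the control, 45.0 under naloxone and 32.3 under DAMGO, a naloxone ratio of 1.44 (1.24 to 1.67). Rrm1 stood at 116, 135 and 119 CPM, a ratio of 1.16 (1.07 to 1.26), so both reductase subunits were highest in the naloxone library. Mcm6 (1.30), Orc2 (1.25), Cdc7 (1.34), Rfc4 (1.37) and Pole2 were the others above, and Pold1 (0.765) was below. Among members of at least 20 CPM the lowest naloxone ratios to control were Dut (0.859), Tyms (0.869), Mcm3 (0.899), Pold2 (0.899) and Mcm2 (0.939), each with an interval that spans 1. Of the MCM helicase core, Mcm4, Mcm5, Mcm6 and Mcm7 had ratios above 1 and Mcm2 and Mcm3 below 1. Only the interval of Mcm6 left out 1.

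Under DAMGO in D2, 3 members were above control (6.25% of members, 8.48% of all genes), which were Mcm6 (1.20), Mcm7 (1.13) and Pole2, and 0 were below (8.26% of all genes). Mcm3 had the lowest ratio among members of at least 20 CPM, at 0.862 (0.727 to 1.02). Between naloxone and DAMGO in D2, 6 members were above 1 (12.5% of members, 9.56% of all genes) and 2 below (4.17%, against 9.29% of all genes). Those above were Rrm2 (1.40), Rfc4 (1.45), Mcm10 (1.43), Prim1 (1.39), Orc2 (1.15) and Rrm1 (1.13), and those below were Dut (0.782) and Mcm7 (0.896). For naloxone over control, DAMGO over control and naloxone over DAMGO, members' shares above 1 rest on 7, 3 and 6 members. They lay on both sides of the shares of all genes. Their shares below 1 rest on 1, 0 and 2 members and were lower than those of all genes in all 3 comparisons. Whether an interval leaves out 1 also depends on a gene's counts, and members were not matched to all genes by count. These shares were not tested, and each rests on 2 libraries. Summed over the members, D2 counts under naloxone were 1.06 times control (1.03 to 1.08) and under DAMGO 1.01 times control (0.987 to 1.04).

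**Figure D5:**
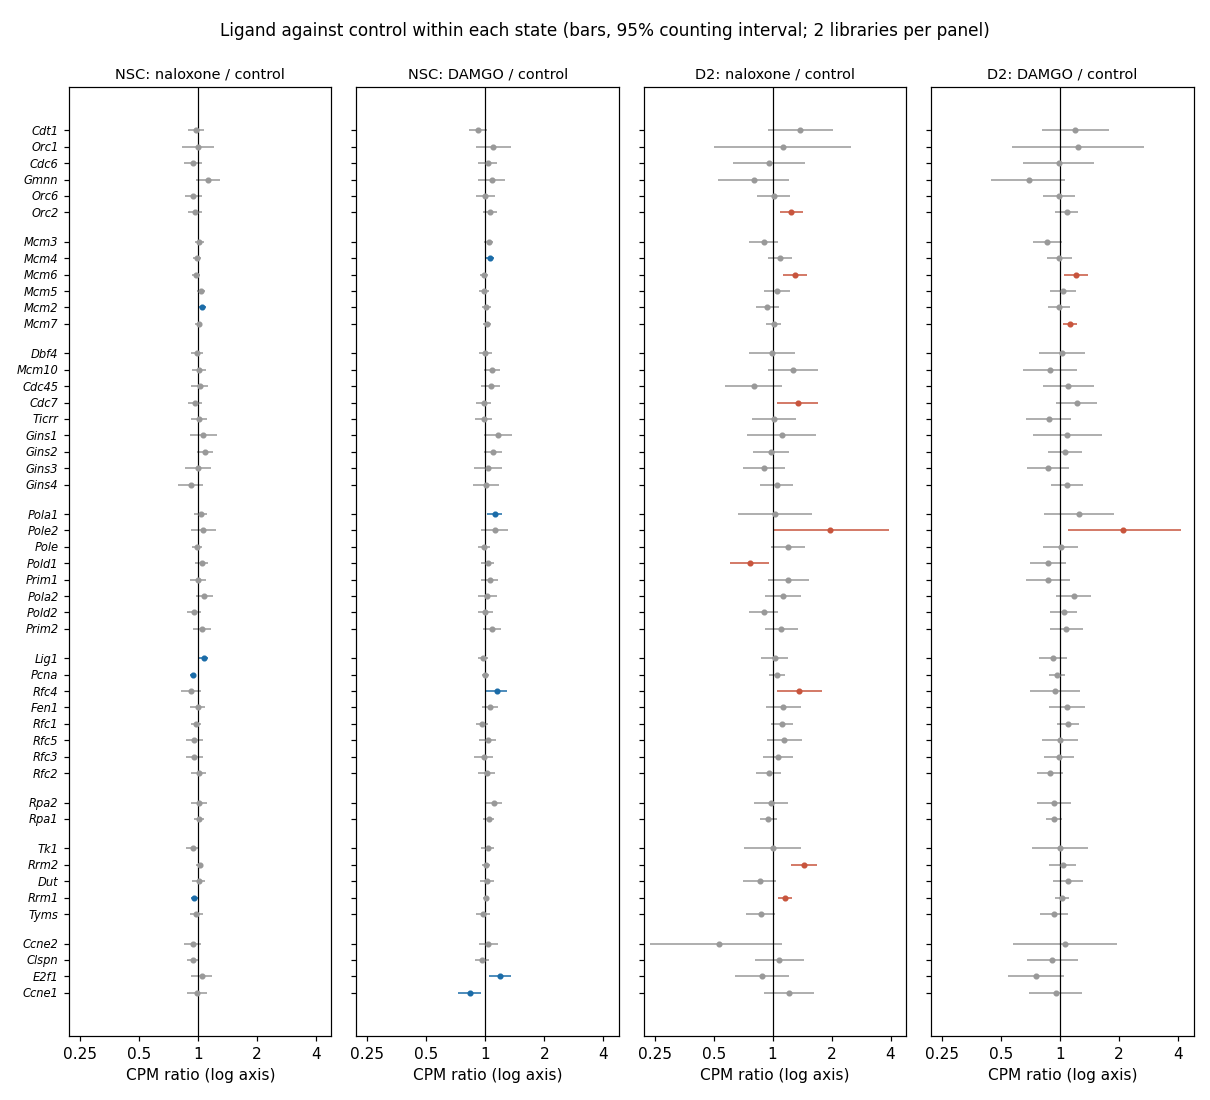
Ratio of TMM-normalised CPM, ligand over control, on a log axis for the 48 genes in each state, with exact 95% intervals for counting error; each panel compares 2 libraries, and coloured points have an interval that leaves out 1. NSC ratios lie between 0.831 and 1.19, D2 ratios between 0.530 and 2.09, and Rrm2 and Mcm6 lie right of 1 in the D2 naloxone panel.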

How the data were processed

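Per the labels' protocols, RNA was isolated in Trizol and Illumina's TruSeq RNA kit, which is not strand-specific, gave the libraries. The authors deposited, for each of the 6 libraries, a table of expected counts, TPM, FPKM and transcript length per gene. Bowtie, RSEM and mm10 are named in the submitters' processing notes; their versions and the annotation are not given in the sources used. RSEM expected counts divide reads that fit several transcripts, and 23 members had a fractional count in some library. The deposited TPM values were used to compare levels between genes, and the deposited FPKM values were not used.

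Expected counts were rounded to whole numbers (largest change of a total, 46.1). Of 29267 identifiers 28756 matched GENCODE release M21. The 13216 genes averaging 10 or more counts were fitted with edgeR 4.0.16 in R 4.3.3 (TMM, glmQLFit, glmQLFTest, state plus ligand, 2 residual degrees of freedom, common biological coefficient of variation 0.0529). The fit also draws each gene's spread toward that of all genes (prior degrees of freedom 9.45), so each SE and p rests largely on a spread shared across genes. The script was tested on simulated data. Within a state, ratios are plain ratios of normalised counts, with medians taken on log2 CPM with a prior count of 2. In each role the members with the largest fall, the smallest fall and the highest NSC TPM are given in every library, and within each state up to 5 members of at least 20 CPM with the highest and lowest ligand ratios were candidates for naming. Other genes given were chosen after their values were seen. Members and lists were chosen with earlier results of these data known. Alternatives were DESeq2 size factors, no count filter, DESeq2 1.42.0, limma 3.58.1 on log2(TPM + 1), state alone, other prior counts and leaving out each library.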

Additional observations from a re-analysis of the deposited data

Results flagged for a closer look

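In 4 ligand comparisons a member had a counting interval wholly on one side of 1 in NSC and wholly on the other side in D2; with 1 library per condition the difference between the states was not tested, and the intervals cover counting error only. Rfc4, a clamp loader subunit, had a naloxone over DAMGO ratio of 0.807 (0.717 to 0.908) in NSC and 1.45 (1.10 to 1.93) in D2, a difference of 0.85 on the log2 scale. Rfc4 shares 12.7% of its exon bases with Eif4a2 on the opposite strand. In D2 Eif4a2 had 2753 to 3093 counts, against 89 to 124 for Rfc4. Orc2, a subunit of the origin recognition complex, had naloxone over DAMGO ratios of 0.918 (0.847 to 0.995) and 1.15 (1.01 to 1.32), a difference of 0.33. Orc2 overlaps Nif3l1 on the opposite strand by 29.8% of its exon bases. The part of either overlap in these ratios was not tested. Rrm1, the large subunit of ribonucleotide reductase, had naloxone over control ratios of 0.959 (0.924 to 0.995) and 1.16 (1.07 to 1.26), a difference of 0.27. Its naloxone over DAMGO ratios were 0.950 (0.914 to 0.988) and 1.13 (1.04 to 1.23), a difference of 0.25, and both Rrm1 results share the naloxone libraries.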

How the results depend on the processing

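All 48 members stayed lower in D2 and 0 were higher with DESeq2 size factors, no count filter, DESeq2's Wald test, limma on log2(TPM + 1), state alone in the model, and without each of the 6 libraries; every one of the 528 alternative values of single members kept its direction and its call. The share of all genes called lower in D2 is given for the main fit alone (39.8%), so these counts lack their own background. The largest shifts of single members were with limma on TPM, for Gins2 (-2.83), Pola1 (-3.45) and Orc1 (-2.54). The median log2 fold change ran from -2.54 to -2.36 when 1 library was left out. Without the 12 members that share over 5% of their exon bases with an opposite-strand gene it was -2.63 over 36 members, an alternative chosen after seeing the data. The 12 were Orc1, Orc2, Orc6, Mcm7, Cdc45, Gins2, Rfc2, Rfc4, Rfc5, Fen1, Lig1 and Ccne2. The number of members called for naloxone was 0 to 1 when 1 library was left out, the 1 being Rrm2 without the NSC naloxone library, a fit whose naloxone arm is 1 library; 0.00757% to 0.560% of all genes were called in these fits. The median log2 ratio of naloxone over DAMGO in D2 was 0.06 on CPM and 0.11 on deposited TPM; the cause was not tested. On TPM the NSC naloxone over control median (0.01) and the D2 DAMGO over control median (-0.03) had the opposite sign to the CPM medians (0.00 and 0.01), moves smaller than the counting interval of the members' summed ratio. The share of member promoters with E2F letters was 35.9% with the longer letters and 89.7% with the shorter ones. The labels give no replicate numbers, so no block by replicate was fitted; ligand as a term already compares D2 with NSC within each ligand. Low counts limit Orc1, Pole2 and Ccne2 in D2.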
